A study of Mus musculus with 6 samples.

Results

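NMDA receptors are glutamate-gated cation channels that need both glutamate and a co-agonist, glycine or D-serine, to open, and they pass calcium once depolarisation has removed a magnesium ion from the pore. Each receptor is a tetramer that contains the obligatory GluN1 subunit (gene *Grin1*) together with GluN2 subunits (*Grin2a*, *Grin2b*, *Grin2c* and *Grin2d*), which bind glutamate, or GluN3 subunits (*Grin3a* and *Grin3b*), which bind glycine. In the hippocampus, *Grin2b* and *Grin2d* are known as early genes, while *Grin2a* comes up after birth. The 7 genes were found by their symbols in a table of 47086 loci, and each symbol had 1 locus there. Of the 7, 6 reached a mean FPKM (fragment counts scaled by transcript length and by library size) of 1 in either genotype and were tested among 13195 such loci, and *Grin3b* did not.

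The libraries were made from total RNA of hippocampal primary cultures on day 14 in vitro, namely 3 libraries from wild type (WT) and 3 from *Fmr1* knockout (KO) newborns, both labelled C57BL/6. *Fmr1* encodes FMRP, an RNA-binding protein that represses translation at synapses and whose loss causes fragile X syndrome. The methods describe the colony as male *Fmr1* KO mice and WT littermates of heterozygous mothers, and nothing ties a library here to a pup, a litter or a sex. The *Fmr1* locus (chromosome X, 68678536 to 68717963, GRCm38) stood at 19.0, 19.5 and 19.7 FPKM for WT against 23.1, 21.8 and 18.5 for the libraries labelled *Fmr1* KO (limma adjusted p = 0.536), so it was not lower there. Since the values sum over all of the gene, they are no check of the labels, and genotype here means the label.

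The label of hippocampal neurons was compared with marker genes. *Camk2a*, a kinase gene of excitatory neurons, had an FPKM of 480 to 592 over the 6 libraries, and the 6 excitatory markers together summed to 847 to 883 in WT and 884 to 951 in *Fmr1* KO. Without *Camk2a* these sums were 362 to 375 and 348 to 370, and while *Camk2a* was higher, *Slc17a7* and *Prox1* were lower in every *Fmr1* KO library than in every WT library. The 6 inhibitory neuron markers summed to 163 to 167 and 161 to 172. Of these, 3 were higher in every *Fmr1* KO library, namely *Dlx1* (6.26 to 7.26 in WT, 8.46 to 9.03 in *Fmr1* KO), *Dlx2* (1.14 to 1.22 and 1.49 to 1.98) and *Lhx6* (5.94 to 7.11 and 8.13 to 8.62). The cultures also held RNA of glia, since 6 astrocyte markers summed to 1355 to 1619 and 1431 to 1589, and 6 markers of the oligodendrocyte lineage to 317 to 370 and 366 to 406, with *Pdgfra* and *Olig2* higher in every *Fmr1* KO library. Microglial markers were low, at 2.96 to 4.63 in WT and 0.927 to 1.72 in *Fmr1* KO, with *Tmem119* listed at 0 in every library. Endothelial and mural markers summed to 7.53 to 8.31 and 6.94 to 7.88, with *Cldn5* at 0, and 6 proliferation genes to 33.2 to 39.0 and 39.4 to 44.4. The summed proliferation markers were thus higher, and the summed microglial markers lower, in every *Fmr1* KO library than in every WT library. The part of any of these markers in the values that follow was not tested. In bulk RNA, fewer cells of a type and less RNA per cell cannot be told apart. The summed FPKM of a library was 1803679 to 2303083, of which the noncoding RNA *Bc1* made up 73.7 to 80.6%. The absolute depth is unknown, and among loci under 0.2 FPKM the ratio of WT replicate 1 to another library that occurred most often was 1.10 to 1.34.

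The RefSeq promoter table (GRCm38.p6) matched 4 of the 7 genes, and the sequences upstream of *Grin1*, the member with the highest level, and *Grin2c*, one of the low members, are shown as far as they lie outside the annotated gene. Capitals mark CpG dinucleotides, and both are given 5′ to 3′ on the minus strand, ending just before the annotated gene. They lie at chr2:25319188-25319437 and chr11:115267298-115267493.
*Grin1*: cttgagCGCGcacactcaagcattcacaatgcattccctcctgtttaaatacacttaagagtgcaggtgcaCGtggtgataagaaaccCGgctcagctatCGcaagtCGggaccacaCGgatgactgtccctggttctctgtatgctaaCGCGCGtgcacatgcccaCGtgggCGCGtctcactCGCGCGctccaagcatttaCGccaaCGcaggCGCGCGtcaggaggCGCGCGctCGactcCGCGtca
*Grin2c*: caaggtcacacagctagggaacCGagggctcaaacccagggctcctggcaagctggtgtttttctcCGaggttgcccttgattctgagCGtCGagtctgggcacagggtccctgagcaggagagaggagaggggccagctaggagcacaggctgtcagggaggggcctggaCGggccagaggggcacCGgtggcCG
The windows in the table cover 250 bases before a listed start, which need not be the start of the annotated gene. The windows of *Grin2d* and *Grin3b* lie inside the annotated genes, as does the last stretch of that of *Grin2c*, so the counts do not compare like regions. The windows held 27 CpG in *Grin1*, 15 in *Grin2c* (7 of them in the stretch printed), 9 in *Grin2d* and 2 in *Grin3b*. Of all 32851 promoters in the table, 8.56% had at least as many CpG as *Grin1*, 27.3% as *Grin2c*, 40.3% as *Grin2d* and 81.2% as *Grin3b*. Searched on both strands, the GC box GGGCGG, which itself contains a CpG, occurred 3 times in the 250 bases of *Grin2c*, none of them within the stretch printed, and was not found in these letters of the other 3 genes, while 32.7% of all promoters held it. These counts describe the sequences, and no measurement of binding or methylation stands beside them.

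*Grin1* (chromosome 2, 25291177 to 25319187, minus strand) had by far the highest level of the 7 genes. WT libraries had 101, 105 and 97.6 FPKM, against 93.8, 96.8 and 97.1 for *Fmr1* KO. All 3 *Fmr1* KO values lay just below the lowest WT value. Means were 101 ± 3.51 for WT and 95.9 ± 1.83 for *Fmr1* KO (SD, n = 3). The log2 change, *Fmr1* KO over WT, was -0.07 with a standard error of 0.05 and a 95% interval of -0.18 to 0.03 (limma, Benjamini-Hochberg adjusted p = 0.495). On this log2(FPKM + 0.1) scale, *Fmr1* KO stood at 0.950 of WT, with an interval of 0.885 to 1.02. The exact two-sided permutation test gave p = 0.1, the smallest p that 3 libraries against 3 allow. Of all tested loci, 10.3% likewise had every *Fmr1* KO library below every WT library, so such a separation was common among the tested loci. *Grin1* was ranked 570 by mean FPKM among the tested loci. The antisense noncoding gene *Grin1os* lies inside *Grin1* (25291258 to 25298660) and had 1.24 to 2.17% of the FPKM of *Grin1*. Whether reads were assigned by strand is not given, so reads of both strands over these 7403 bases cannot be told apart.

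**Figure D1:**
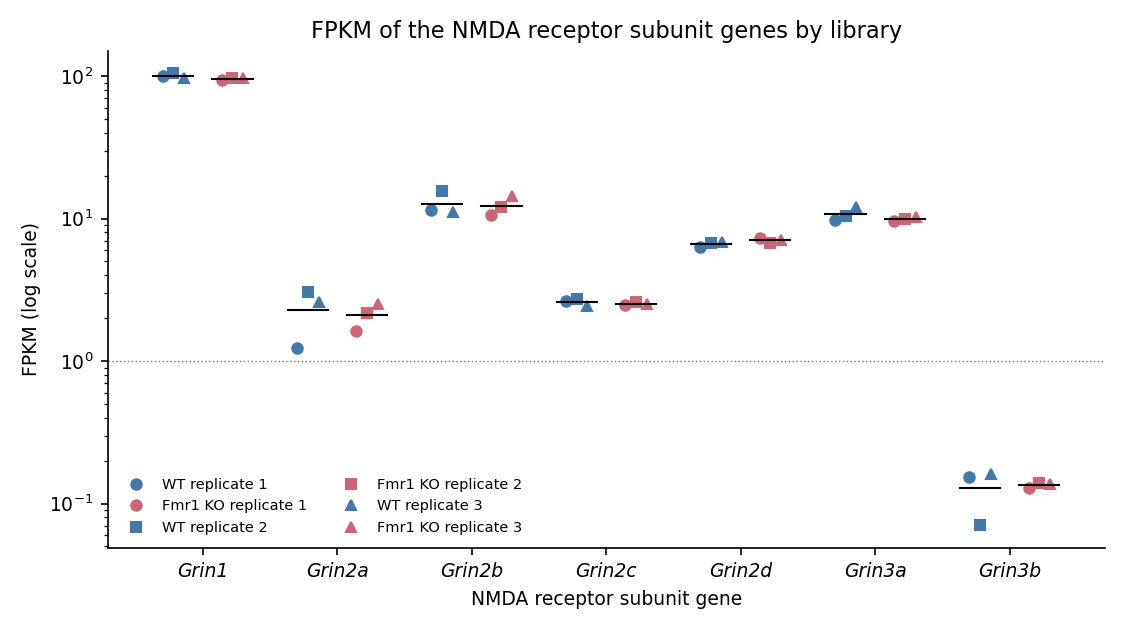
FPKM on a log axis for each of the 7 subunit genes, with WT libraries in blue, Fmr1 KO libraries in red, symbols for the replicate number and black lines for group means. Grin1 lies near 100 in all libraries and Grin3b below the dotted line at 1, the minimum for testing.

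Among the GluN2 genes, *Grin2b* was the most abundant. *Grin2b* (chromosome 6, 135713221 to 136173615), which encodes the subunit with slow deactivation that prevails before birth, had an FPKM of 11.4, 15.5 and 11.1 for WT against 10.5, 12.1 and 14.4 for *Fmr1* KO. The genotypes overlapped, and in each genotype 1 library stood above the others. The log2 change was -0.04 (95% interval -0.37 to 0.29, limma adjusted p = 0.940). It turned to 0.12 without WT replicate 2 and to 0.07 without *Fmr1* KO replicate 1, so these libraries set its sign.

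*Grin2a* (chromosome 16, 9567901 to 9996083), the gene of the subunit with faster kinetics that becomes common as hippocampal synapses mature, was much lower. Its FPKM was 1.24, 3.04 and 2.59 for WT against 1.64, 2.17 and 2.53 for *Fmr1* KO. WT replicate 1 and *Fmr1* KO replicate 1 held the lowest values of their genotypes. The log2 change was -0.04 with a 95% interval of -0.73 to 0.65 (limma adjusted p = 0.966), which spans ratios of *Fmr1* KO to WT from 0.604 to 1.56. Its sign changed without WT replicate 2 (0.20), WT replicate 3 (0.09) or *Fmr1* KO replicate 1 (0.12), and the log2 change was -0.41 without WT replicate 1. The spread of *Grin2a* within genotypes (SD 0.51 on the log2 scale) was greater than that of 98.5% of tested loci, against 91.6% for *Grin2b* (SD 0.24) and 7.09% for *Grin1* (SD 0.04). The data therefore bound a genotype difference of *Grin1* closely and that of *Grin2a* hardly at all.

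Deviations of single libraries were also read against annotated transcript length. The longest transcript in GENCODE M21 has 24060 bases for *Grin2b* and 14634 for *Grin2a*, against 4276 for *Grin1*. The 333 tested loci with a transcript of at least 10000 bases had, relative to the mean of the 6 libraries, a median log2 deviation of -0.17 in WT replicate 1, 0.08 in WT replicate 2 and -0.0010 in WT replicate 3, and of -0.04, 0.05 and 0.09 in *Fmr1* KO replicates 1 to 3. The 3019 loci under 2000 bases deviated by 0.09 in WT replicate 1 and by -0.04 to 0.02 in the other libraries. *Grin2a* deviated in the same direction as the long loci in each library except WT replicate 3, by -0.72 in WT replicate 1, 0.50 in WT replicate 2, 0.28 in WT replicate 3, -0.35 in *Fmr1* KO replicate 1, 0.04 in *Fmr1* KO replicate 2 and 0.25 in *Fmr1* KO replicate 3. *Grin2b*, with the longer transcript, had the smaller spread, and in *Fmr1* KO replicate 2 it deviated by -0.03, opposite to the long loci. After the trend with length was taken out of each library, a step added after the values were seen, the within-genotype SD fell from 0.51 to 0.39 for *Grin2a* and from 0.24 to 0.16 for *Grin2b*, and was 0.04 before and after for *Grin1*. Most of the spread of *Grin2a* thus stayed after the length trend was removed, and the cause of the spread was not tested. No subunit gene passed an adjusted p of 0.05 in that fit either.

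**Figure D2:**
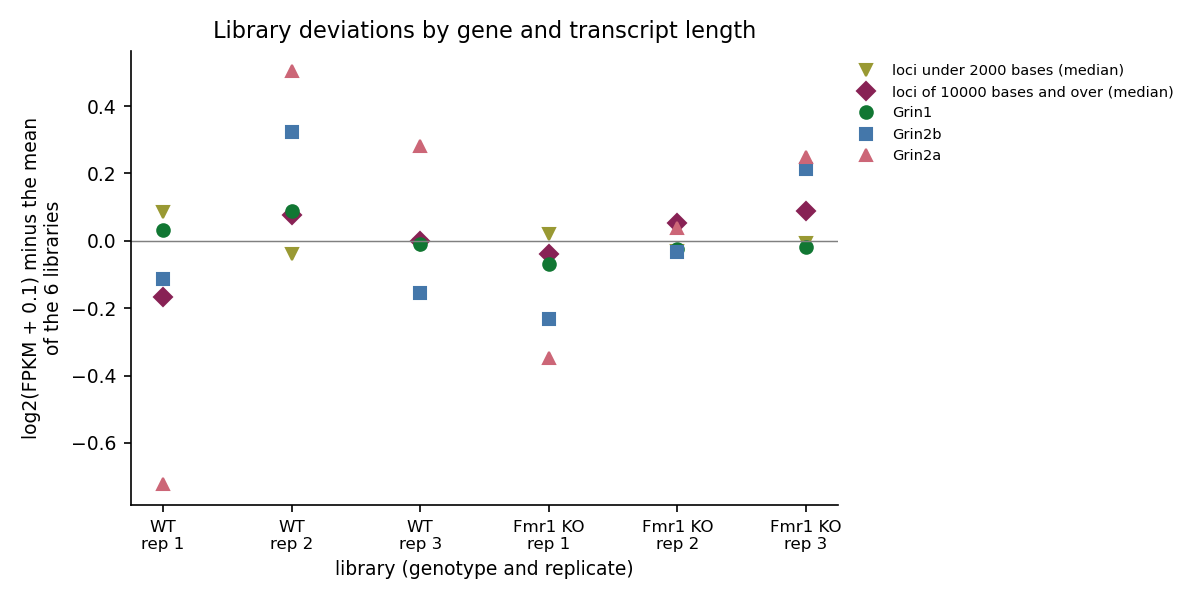
Deviation of log2(FPKM + 0.1) from the mean of the 6 libraries, for Grin1, Grin2a and Grin2b and for the median of the loci with short and with long annotated transcripts. In WT replicate 1, Grin2a is at -0.72 and the long loci at -0.17, while short loci are at 0.09.

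The remaining GluN2 genes, *Grin2d* and *Grin2c*, varied little between libraries. *Grin2d* (chromosome 7, 45831883 to 45871194), known from interneurons and early development and for very slow deactivation, had an FPKM of 6.33, 6.72 and 6.82 for WT against 7.26, 6.79 and 7.05 for *Fmr1* KO. The ranges overlapped by a narrow margin, with 2 of 3 *Fmr1* KO libraries above all WT libraries. It was the one tested subunit gene with a higher mean in *Fmr1* KO, by 0.09 on the log2 scale (95% interval -0.07 to 0.24, limma adjusted p = 0.602), which did not pass the test. Of the 6 inhibitory neuron markers given above, *Dlx1*, *Dlx2* and *Lhx6* were higher in every *Fmr1* KO library. *Gad1* (88.2 to 92.8 in WT, 83.9 to 90.35 in *Fmr1* KO), *Gad2* (25.9 to 28.7 and 28.2 to 31.0) and *Slc32a1* (30.4 to 34.2 and 30.0 to 31.4) overlapped. The part of any of these markers in the value of *Grin2d* was not tested.

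*Grin2c* (chromosome 11, 115249169 to 115267297), best known from cerebellar granule cells and also from astrocytes, had 2.62, 2.74 and 2.45 for WT against 2.46, 2.59 and 2.54 for *Fmr1* KO, with the *Fmr1* KO values inside the WT range. Its log2 change was -0.04 (95% interval -0.27 to 0.19, limma adjusted p = 0.894). The cerebellar granule cell markers *Gabra6*, *Cbln3* and *Fat2* together summed to only 0.291 to 0.491 over the libraries, and *Gabra6* and *Fat2* were below 0.1 in each.

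The glycine-binding GluN3 genes were far apart in level. *Grin3a* (chromosome 4, 49661611 to 49846023), whose subunit lowers calcium permeability and is known from the early postnatal brain, had an FPKM of 9.71, 10.5 and 12.04 for WT against 9.59, 10.0 and 10.3 for *Fmr1* KO. The genotypes overlapped, and WT replicate 3 lay above the other 5 libraries. The log2 change was -0.10 (95% interval -0.29 to 0.09, limma adjusted p = 0.622), and it was -0.02 without WT replicate 3. *Grin3b* (chromosome 10, 79970397 to 79977190), which is best known from motor neurons, was listed at 0.152, 0.0704 and 0.161 for WT against 0.128, 0.140 and 0.137 for *Fmr1* KO. These values are under the minimum, and no fold change is drawn from them. In the fit without a minimum its adjusted p was 0.942.

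Across the family, 0 of the 6 tested genes passed an adjusted p of 0.05 in limma, and 0 passed an unadjusted p of 0.05. Across all tested loci, 0.265% passed the adjusted and 14.8% the unadjusted threshold. *Grin1* was the 1 gene of the 6 with separated genotypes, against 21.1% of all tested loci separated in either direction. The log2 change was below 0 in 5 genes and above 0 in 1, with a median of -0.04, while the median over all tested loci was 0.0050, with quartiles of -0.08 and 0.09. These tests do not show that the genes are equal between genotypes, and the intervals give the differences that remain possible.

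**Figure D3:**
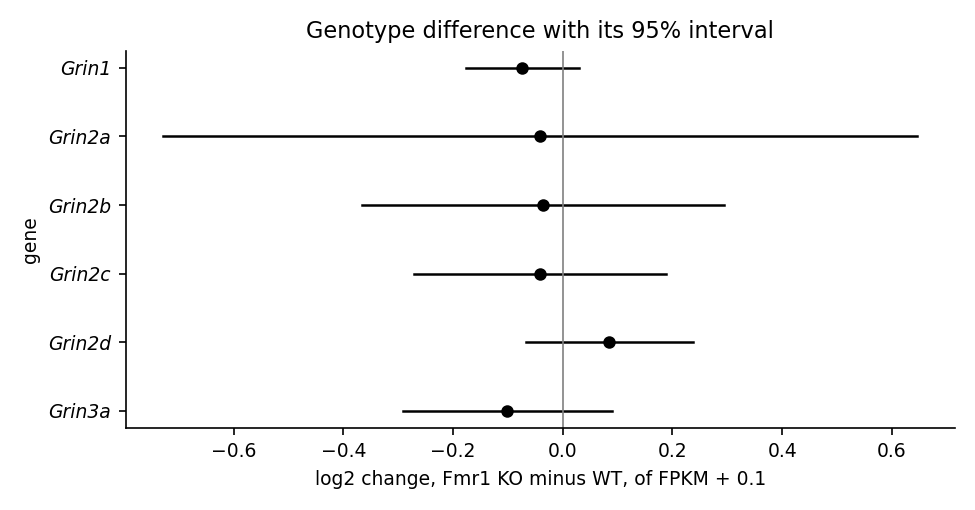
Log2 change of FPKM + 0.1 between genotypes (Fmr1 KO minus WT) for the 6 tested subunit genes, with points for the limma estimate and lines for its 95% interval. Every interval crosses 0, and they range in width from that of Grin1 (-0.18 to 0.03) to that of Grin2a (-0.73 to 0.65).

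FPKM is scaled by transcript length, so levels may be set against each other, but only roughly. Single libraries still deviated with annotated transcript length, as given above, and the annotation and strand setting behind the values are not given. Ordered by mean FPKM over the 6 libraries, the genes ran *Grin1* (98.4), *Grin2b* (12.5), *Grin3a* (10.4), *Grin2d* (6.83), *Grin2c* (2.57), *Grin2a* (2.20) and *Grin3b* (0.132). Since the order comes from these same values, neighbours are described by their difference of log2(FPKM + 0.1) within libraries (mean ± SD, n = 6), with no test. *Grin1* exceeded *Grin2b* in 6 of 6 libraries, by 2.98 ± 0.19. *Grin3a* over *Grin2d* (0.59 ± 0.13), *Grin2d* over *Grin2c* (1.38 ± 0.11) and *Grin2a* over *Grin3b* (3.27 ± 0.60) also held in 6 of 6 libraries. *Grin2b* was above *Grin3a* in 5 of 6 libraries, by 0.26 ± 0.24, and *Grin2c* above *Grin2a* in 4 of 6, by 0.27 ± 0.45, so that the last difference was smaller than its SD and the former about as large.

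The balance among subunits was then compared, since a ratio within a library is free of that library's overall scaling, though not of a trend with transcript length. *Grin1* made up 72.4 to 76.1% of the FPKM of the 7 genes, and was 3.67 to 4.65 times the summed GluN2 genes. Transcript ratios do not give the subunit makeup of receptors. Of the summed GluN2 FPKM, *Grin2b* held 52.9, 55.4 and 48.4% for WT against 48.1, 51.1 and 54.3% for *Fmr1* KO. *Grin2d* came next, with 29.3, 24.0 and 29.7% for WT against 33.2, 28.7 and 26.6% for *Fmr1* KO. The remainder was divided between *Grin2c* (9.58 to 12.1% over the 6 libraries) and *Grin2a* (5.74 to 11.3%), so the gene of the mature subunit was 1 of the 2 smallest shares in every library.

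*Grin2b* exceeded *Grin2a* by a factor of 9.22, 5.10 and 4.29 for WT against 6.42, 5.56 and 5.68 for *Fmr1* KO. The mean log2 ratio was 2.55 ± 0.58 (WT) and 2.55 ± 0.11 (*Fmr1* KO) (SD, n = 3, exact permutation p = 1), and the high ratio of WT replicate 1 goes with its low *Grin2a* value. Without that library, the log2 ratio was 0.33 higher in *Fmr1* KO than in WT (exact permutation p = 0.1, the smallest that 2 against 3 allow). The log2 ratio of summed GluN2 to *Grin1* was -2.07 ± 0.16 (WT) and -2.00 ± 0.12 (*Fmr1* KO) (SD, n = 3, exact permutation p = 0.6), and that of summed GluN3 to *Grin1* was -3.22 ± 0.19 and -3.25 ± 0.03 (SD, n = 3, exact permutation p = 1). Without WT replicate 3 the GluN3 ratio was 0.08 higher in *Fmr1* KO instead of lower (exact permutation p = 0.1, again the smallest possible). The summed FPKM of the 7 genes was 136 ± 6.21 (WT) and 130.0 ± 4.37 (*Fmr1* KO) (SD, n = 3, exact permutation p = 0.3). Over the 8 shares, ratios and sums compared with all libraries and the values as given, the genotypes overlapped in each and the adjusted p was 1 in each. With the length trend removed, the sum of the 7 genes no longer overlapped between genotypes (exact permutation p = 0.1).

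**Figure D4:**
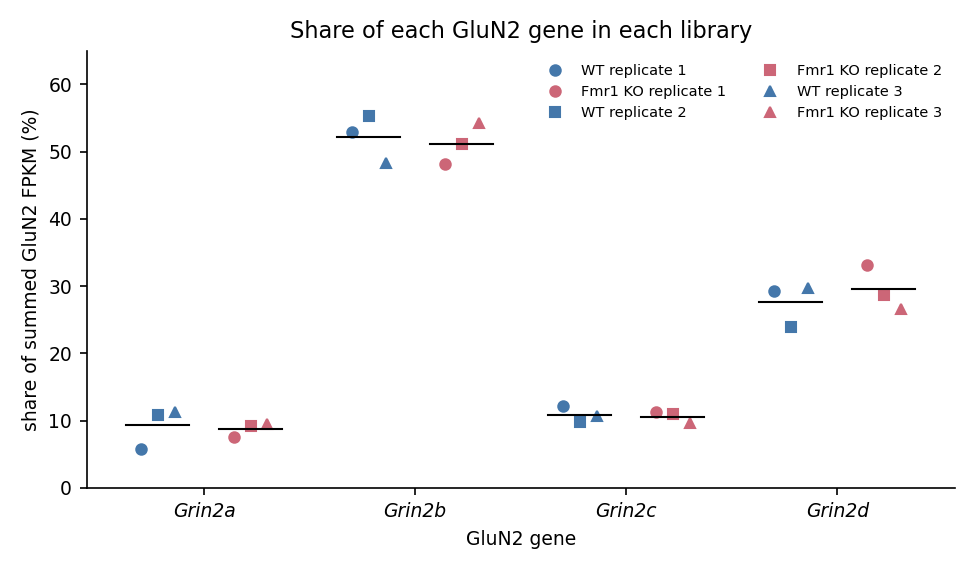
Share of each GluN2 gene in the summed FPKM of the 4 GluN2 genes (%), with WT libraries in blue, Fmr1 KO libraries in red and black lines for group means. Grin2b holds 48.1 to 55.4%, Grin2d 24.0 to 33.2%, and Grin2a and Grin2c no more than 12.1% in any library.

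The pattern of each subunit gene over the 6 libraries was set against all other tested loci by Pearson's r of log2(FPKM + 0.1), as a description over 6 points that share library and scaling. The nearest pair was *Slc4a1ap* (0.992) and *1700019D03Rik* (0.991) for *Grin1*, *Mtmr9* (0.997) and *Zdhhc5* (0.996) for *Grin2a*, and *F730043M19Rik* (0.996) and *Zfp853* (0.989) for *Grin2b*. For *Grin2c* it was *Brf2* (0.978) and *Polr1e* (0.973), for *Grin2d* *3110002H16Rik* (0.989) and *Top3b* (0.979), and for *Grin3a* *Nup214* (0.989) and *Slc1a3* (0.988). None of the nearest loci was another subunit gene. An r above 0.9 was reached by 36 loci for *Grin2c* and by 338 for *Grin2a*. Between subunit genes, r ran from -0.678 for *Grin1* and *Grin2d* to 0.878 for *Grin1* and *Grin2c*.

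Genes that act around the receptor were read from the same fit in 8 hand-written lists with 109 entries, of which 100 were tested. At an adjusted p of 0.05 there were 0 in limma, and at an unadjusted p of 0.05 there were 10 higher and 7 lower, or 17.0% of the tested entries against 14.8% of all loci. The median log2 change of the lists together was 0.03. Of the tested entries, 26 had separated genotypes and 74 overlapped, against 21.1% of all tested loci separated in either direction. Genes named for the smallest p of their list were picked from these same values, so their separation is no further support. No list was tested as a set.

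Of the other ionotropic glutamate receptor genes, which encode AMPA, kainate and delta subunits, all 11 were tested, and 9 had a log2 change above 0, with a median of 0.04. *Grik1*, a kainate receptor subunit gene, had an FPKM of 6.64, 6.95 and 6.94 for WT against 8.23, 8.60 and 8.18 for *Fmr1* KO, without overlap. The difference was 0.28 on the log2 scale, with a standard error of 0.06 (limma adjusted p = 0.104). *Gria4*, an AMPA receptor subunit gene, was next by p, with a log2 change of 0.07 (limma adjusted p = 0.621).

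The co-agonist genes, for glycine and D-serine handling, held 10 tested genes. At an unadjusted p of 0.05, 3 (30%) were lower and 0 higher, against 14.8% of all tested loci in either direction. *Psph*, the phosphatase of the last step of serine synthesis, had an FPKM of 29.7, 27.4 and 29.4 for WT against 23.8, 23.6 and 25.8 for *Fmr1* KO (log2 change -0.24, limma adjusted p = 0.130). *Slc6a9*, the glycine transporter GlyT1, had 9.23, 8.60 and 9.97 for WT against 8.31, 7.502 and 8.33 for *Fmr1* KO (log2 change -0.20, limma adjusted p = 0.283). In both genes all *Fmr1* KO libraries lay below all WT libraries, as in 10.3% of all tested loci. Among the 8 tested genes of glutamate supply and uptake none was below an unadjusted p of 0.05, with *Slc1a1*, a neuronal glutamate transporter, at a log2 change of -0.13 (limma adjusted p = 0.422).

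Of the scaffolds and anchors that hold the receptor in the postsynaptic density, 19 were tested, with a median log2 change of 0.07. At an unadjusted p of 0.05, 3 were higher and 1 lower (21.1% together, against 14.8% of all tested loci). *Homer2* had an FPKM of 12.7, 14.3 and 14.3 for WT against 15.9, 16.0 and 17.1 for *Fmr1* KO (log2 change 0.25, limma adjusted p = 0.163). *Akap5*, which anchors kinases and calcineurin, had 11.5, 13.2 and 12.8 for WT against 10.9, 10.1 and 10.6 for *Fmr1* KO (log2 change -0.24, limma adjusted p = 0.185). Both genes had separated genotypes and neither passed the adjusted threshold. *Dlg4*, the gene of PSD-95, was listed at 0 in 5 libraries and at 0.017 in WT replicate 3, and the table also holds a *Dlg4* locus on a scaffold outside the chromosomes, listed at 0 throughout. *Csnk2b* and *Ppp1ca* of the kinase list have such scaffold copies too and were listed at 0 at each locus, so for these genes no level is read from the table. The subunit genes have no second locus.

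Of the kinases and phosphatases acting on the receptor, 17 genes were tested. At an unadjusted p of 0.05, 1 was higher and 1 lower (11.8% together, against 14.8% of all tested loci). *Ptpn5*, the phosphatase STEP that dephosphorylates GluN2B, had an FPKM of 39.1, 39.4 and 37.3 for WT against 34.3, 33.4 and 35.0 for *Fmr1* KO (log2 change -0.17, limma adjusted p = 0.170). *Camk2a*, which binds and phosphorylates GluN2B, had 480, 508 and 484 for WT against 513, 537 and 592 for *Fmr1* KO (log2 change 0.16, limma adjusted p = 0.286). Neither gene had overlapping genotypes.

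Among 15 transport and auxiliary genes, 2 were higher and 2 lower by unadjusted p (26.7% together, against 14.8% of all tested loci). *Nsf*, an ATPase of membrane fusion, had an FPKM of 182, 192 and 169 for WT against 162, 149 and 154 for *Fmr1* KO (log2 change -0.22, limma adjusted p = 0.153). *Grina*, which carries an NMDA receptor name but encodes a membrane protein of the TMBIM family and no channel subunit, had 141, 133 and 134 for WT against 123, 125 and 122 for *Fmr1* KO (log2 change -0.14, limma adjusted p = 0.208).

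The calcium-dependent effectors held the smallest p of all lists. *Nos1*, the neuronal nitric oxide synthase that is coupled to the receptor through PSD-95, had an FPKM of 9.21, 10.6 and 9.60 for WT against 12.4, 13.6 and 14.2 for *Fmr1* KO, and every *Fmr1* KO library was above every WT library. The difference was 0.45 on the log2 scale, with a standard error of 0.08 (limma adjusted p = 0.0654). It passed 0.05 when the FPKM minimum was 5 (limma adjusted p = 0.0439), with the replicate number as a block (0.0441) and with the length trend removed (0.0291). It did not pass without a minimum (0.164), without the mean-variance trend (0.114), with the other pseudocounts or centring (0.065 to 0.0692) or with any 1 library left out (0.0975 to 0.227). Among the markers of inhibitory neurons, *Dlx1*, *Dlx2* and *Lhx6* were also higher in every *Fmr1* KO library, while *Gad1*, *Gad2* and *Slc32a1* overlapped. The part of these markers in the value of *Nos1* was not tested. *Crtc1*, a CREB coactivator, was the next in this list, at 0.15 (adjusted p = 0.222 in limma). At an unadjusted p of 0.05, 3 of the 9 tested effectors (33.3%) were higher and 0 lower, against 14.8% of all tested loci in either direction. Of 11 transcription regulators of subunit genes, none was below an unadjusted p of 0.05, and the smallest p were those of *Rcor1*, a partner of the repressor REST, with a log2 change of 0.16 (limma adjusted p = 0.357), and of *Ezh2*, with 0.12 (adjusted p = 0.464 in limma).

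**Figure D5:**
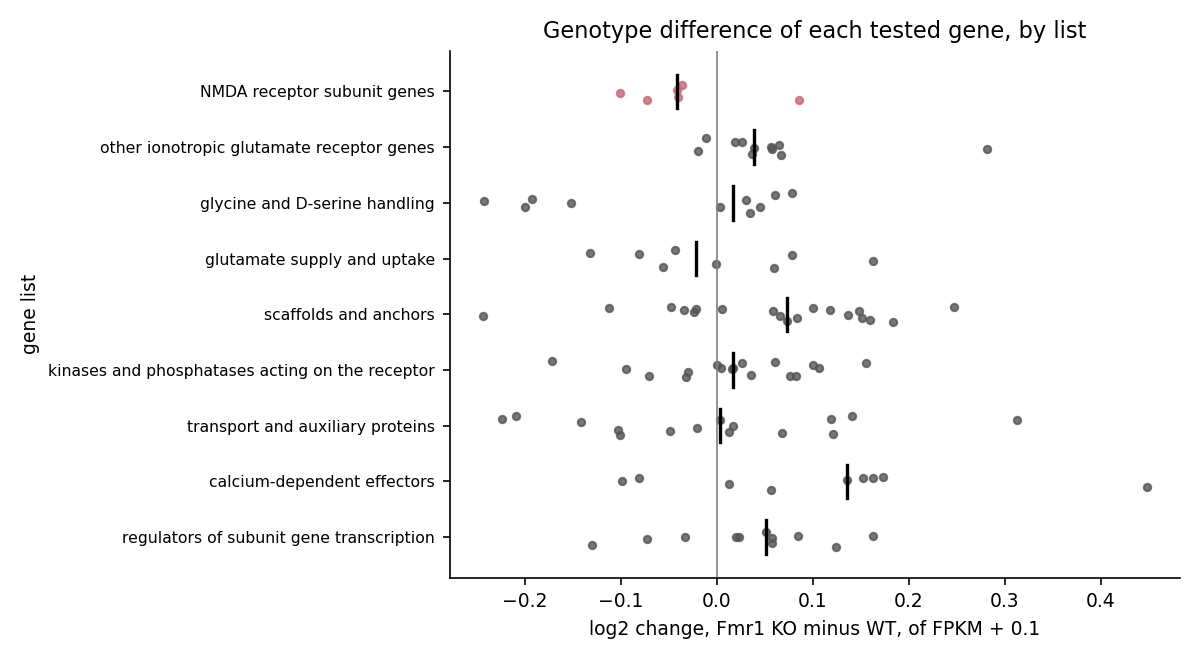
Log2 change of FPKM + 0.1 (Fmr1 KO minus WT) of each tested gene, by list, with subunit genes in red and black bars for list medians. The subunit genes lie between -0.10 and 0.09, and the point farthest to the right is Nos1 at 0.45.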

How the data were processed

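Total RNA from 3 WT and 3 *Fmr1* KO cultures was sequenced. Adapters were clipped with Fastx Clipper and reads trimmed with sickle, mapped to GRCm38 with TopHat2 and quantified with Cufflinks and Cuffdiff by the authors, whose deposited FPKM per library were used as given. For their versions, annotation, strand setting and library scaling, nothing is given in the sources used here. Their group means, fold changes, p-values and q-values were not used. Each locus was taken once, and loci whose mean FPKM reached 1 for WT or *Fmr1* KO were analysed on the scale log2(FPKM + 0.1) by limma 3.58.1 in R 4.3.3 (genotype only, mean-variance trend, two-sided, Benjamini-Hochberg adjustment over 13195 loci). The fit was also run on simulated data, with noise drawn independently for each locus and library and so without a shared length trend. No result given here rests on that run. Nothing states that libraries are separate animals. The limma p-values therefore set the genotype difference against the spread between these libraries, moderated over all tested loci, and not against a spread between animals. FPKM are not counts, the absolute depth is unknown and no counting interval is given.

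Shares and ratios were compared by exact permutation tests (Python 3.11.15). Named genes are the 7 members, *Fmr1*, in each list any gene past the adjusted threshold or else the 2 with the smallest p, the 2 loci most like each tested member by Pearson's r, and marker genes; *Grin1os*, *Bc1*, the scaffold genes and overlapping genes were named after their values were seen. The members and lists were chosen with earlier results of these data known. The fit was repeated with a pseudocount of 1 or 0.01, an FPKM minimum of 0 or 5, centring of each library, no trend, the replicate number as a block, and without each library. Removal of the length trend (lowess, span 0.3, for the 97.2% of tested loci with a length) was added after seeing the data. Some genes of the lists are counted but not reported here by name. Protein sequences were not used here.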

Additional observations from a re-analysis of the deposited data

How the results depend on the processing

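The number of subunit genes at an adjusted or an unadjusted p below 0.05 was 0 under every alternative run, and the direction of *Grin1*, *Grin2c*, *Grin2d* and *Grin3a* held in each. The sign changed for *Grin2a* (leave-one-out range -0.41 to 0.20) and *Grin2b* (-0.15 to 0.12). Between genotypes, leaving out single libraries gave -2.32 to 0.454 percentage points for the *Grin2a* share, -2.96 to 0.544 for *Grin2b*, -0.811 to 0.353 for *Grin2c* and 0.0239 to 3.30 for *Grin2d* (1.86 with all; lowest without *Fmr1* KO replicate 1 and, at 0.0264, WT replicate 2), -8.04 to -2.42 FPKM for the sum of the 7 genes (lowest in size without WT replicate 2), and on the log2 scale -0.22 to 0.33 for *Grin2b* over *Grin2a*, -0.0086 to 0.15 for summed GluN2 over *Grin1* and -0.0911 to 0.0834 for summed GluN3 over *Grin1*. With the length trend removed, the *Grin2c* share differed by 0.0443 percentage points (-0.277 before) and the log2 ratio of *Grin2b* to *Grin2a* by -0.0048 (0.0024 before), while summed GluN2 over *Grin1* went from 0.07 to 0.01, summed GluN3 over *Grin1* from -0.03 to -0.07 and the *Grin2b* share from -1.04 to -1.94. The cause of these changes, in sign or in size, was not tested.

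Over all loci, 35 passed the adjusted threshold, against 15 without an FPKM minimum, 54 with a minimum of 5, 21 without the mean-variance trend, 65 with the replicate block, 101 with the length trend removed and 14 to 20 with 1 library left out. In the lists around the receptor the number was 1 (*Nos1*), instead of 0, with a minimum of 5, with the replicate block and with the length trend removed. Same-numbered libraries of the 2 genotypes correlated in their deviations by 0.243, 0.058 and 0.08, and unlike-numbered ones by -0.152 to 0.078. WT replicates 1 and 3 correlated best with the library of the same number, and WT replicate 2 with *Fmr1* KO replicate 3 (0.066). These values do not settle whether same-numbered libraries were processed together. The main fit did not pair them, and the fit with the replicate number as a block is given beside it. *Grin3b* is limited by its low FPKM.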

Other observations

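Other genes overlap the subunit genes in the RefSeq annotation, and their values were read after the fact. The noncoding gene *Gm26653* (chromosome 6, 136173028 to 136175710) shares 588 bases with the first part of *Grin2b* and had an FPKM of 0.283, 0.283 and 0.226 for WT against 0.714, 0.430 and 0.339 for *Fmr1* KO. All *Fmr1* KO libraries lay above all WT libraries, at levels under the FPKM minimum, and in the fit without a minimum the log2 change was 0.66 (limma adjusted p = 0.522). *Ppp3r2*, a calcineurin regulatory subunit gene that lies inside *Grin3a* (3237 bases), had an FPKM of 0.0802 to 0.219 over the libraries. *Tmem259*, which shares 71 bases with the end of *Grin3b*, had 40.8 to 45.4, against 0.0704 to 0.161 for *Grin3b*; how reads of the shared stretch were assigned is not given.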
